A study of Mus musculus with 7 samples.

Results

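The levels of 10 dual specificity phosphatase genes, Dusp1, Dusp3, Dusp4, Dusp6, Dusp7, Dusp8, Dusp10, Dusp15, Dusp16 and Dusp26, were compared between Klf13 knockout and control oligodendroglia. These are 10 of the 49315 genes in the count tables, and each was found by its symbol. The family was picked because Dusp10 was among the clearest decreases in the knockout, so that the differences of its members between the groups are given as a description and are no independent test. The fit over all genes includes them, and how many passed its thresholds is stated once, beside the share among all genes. The cells were primary mouse oligodendroglia prepared from the brains of newborn animals of both sexes and kept for 6 days in differentiating medium with thyroid hormone. Control cultures (Klf13_ctrl, n = 4) came from wildtype mice and knockout cultures (Klf13_ko, n = 3) from mice in which Klf13 is deleted constitutively in all tissues, so that the cells had lacked it throughout development. KLF13 is a zinc finger transcription factor of the Krüppel-like family that binds GC-rich and CACCC sequences. The libraries are labelled as biological replicates, and which litters or culture days they share is not stated.

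The 7 libraries held 24507471 to 59596479 counts on genes, and genes that collect ribosomal RNA reads (Gm42418, Gm23935 and Lars2) took 6.03% to 18.0% of them in libraries of both groups. Klf13 had normalized counts of 10915, 11769, 12000 and 10670 in the controls, against 802, 876 and 961 in the knockouts, so that 7.76% of the control mean was left (log2 fold change -3.69 ± 0.089 SE, adjusted p = 6.77e-06 in edgeR's quasi-likelihood test). A normalized count is a count divided by the scaled size of its library and multiplied by the mean scaled size. Summed over 12 oligodendrocyte markers fixed for this purpose, among them Mbp, the normalized counts lay between 1145460 and 1306020 in the controls and between 331802 and 379874 in the knockouts, and all 12 markers passed the test as lower. Oligodendrocyte transcripts were thus abundant in every library, as the label says, though less so in the knockouts. Of 10 astrocyte markers, 9 were higher, with sums of 108087 to 151342 in the controls and 212380 to 249284 in the knockouts. Of 10 markers of oligodendrocyte precursors 3 were higher and 0 lower, and 8 had positive and 2 negative log2 fold changes. Their sums were 170663 to 190957 in the controls and 218559 to 220988 in the knockouts. Of 12 neuron markers 10 were higher, and 1 of 10 fibroblast and mural cell markers, 1 of 5 tested endothelial markers and 0 of 10 microglia markers were lower. In such bulk samples, fewer cells of a type and less RNA per cell cannot be told apart, and the part of these markers in the values of the Dusp genes was not tested.

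Dual specificity phosphatases remove phosphate from tyrosine as well as from serine and threonine. The best known among them are the MAP kinase phosphatases, which inactivate ERK, JNK and p38 by dephosphorylating both the threonine and the tyrosine of the activation loop. Their genes are often induced by the pathway they switch off, so that they act as feedback. ERK and p38 signalling both take part in the maturation of oligodendrocytes, and Dusp15 is known as a gene of differentiating oligodendrocytes.

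All members encode the catalytic signature of this enzyme class, in which the cysteine that attacks the phosphate follows a histidine and is separated from an arginine by 5 residues. The coding stretch for it is shown to compare the members in this short stretch. It occurred exactly once in frame in the coding sequence of each gene. The sequences come from GENCODE M21 on GRCm38 and are written on the coding strand, with the codons of the histidine, the cysteine and the arginine in capitals.
Dusp1: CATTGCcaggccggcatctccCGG
Dusp4: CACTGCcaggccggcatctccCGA
Dusp10: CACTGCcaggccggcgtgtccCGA
Dusp6: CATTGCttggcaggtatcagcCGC
Dusp7: CACTGCctagcaggcatcagcCGT
Dusp8: CACTGTctggctggcatctctCGC
Dusp16: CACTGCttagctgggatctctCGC
Dusp3: CATTGCcgcgagggctacagcCGC
Dusp15: CACTGCtttgcaggtatatctCGA
Dusp26: CACTGTgcggtgggagtgagcAGA
Of the 24 bases, 8 were the same in all 10 genes. Dusp10 shared 22 of 24 bases with Dusp4, and Dusp4 shared 22 with Dusp1. Dusp8 and Dusp16, the pair that is closest by its known preference for JNK and p38, shared 20. Dusp6 and Dusp7, the pair that acts on ERK in the cytoplasm, shared 19. Pairs of unlike role could match as closely, with 20 for Dusp1 and Dusp10 and 19 for Dusp15 and Dusp16. The lowest value, 10 of 24, was seen between Dusp16 and Dusp26 and between Dusp3 and Dusp15. The stretch of Dusp10 lies in the last of its 4 exons (chr1:184074293-184074316, plus strand), and that of Dusp15 is split between exons 5 and 6 of 7 (chr2:152944304-152945431, minus strand). Dusp10 and Dusp4, so close in this stretch, had very unlike differences between the groups, which are described next.

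Among the phosphatases of JNK and p38, Dusp10 showed the largest difference of all members. DUSP10, also known as MKP5, acts mainly on p38 and JNK. The gene (ENSMUSG00000039384) lies at chr1:184013302-184075636 on GRCm38, plus strand. Its normalized counts were 2599, 2567, 2240 and 2178 in the controls, against 469, 432 and 465 in the knockouts. The 3 knockout libraries lay close together and far below every control. The means were 2396 ± 218 (SD, n = 4) and 455 ± 20.5 (SD, n = 3), so that 19.0% of the control level was left, with a log2 fold change of -2.40 ± 0.092 (SE). Between them, 14 alternative ways to analyse the counts gave log2 fold changes of -2.44 to -2.34.

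Dusp16, which encodes the JNK phosphatase MKP7 (chr6:134715468-134792625, minus strand), had normalized counts of 2216, 2225, 2022 and 1996 in the controls, against 1311, 1147 and 1473 in the knockouts. All knockout libraries again lay below all controls, but the step was much smaller than for Dusp10. The mean changed from 2115 ± 123 to 1310 ± 163 (SD), which is 62.0% of the control level and a log2 fold change of -0.69 ± 0.096 (SE). Dusp8 (chr7:142079490-142095843, minus strand), the closest relative of Dusp16 in this set, had 2224, 2728, 2182 and 2022 in the controls, against 2434, 3399 and 2168 in the knockouts. Its groups overlapped, and knockout replicate 2 was the highest of the 7 libraries. Dusp8 was the only member with a positive log2 fold change, 0.22 ± 0.17 (SE), and without knockout replicate 2 the value was 0.0071. With the share of counts on the ribosomal RNA genes as a covariate it was 0.36, and in that fit Dusp8 passed an adjusted p of 0.05 as higher.

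The phosphatases of ERK in the cytoplasm differed from each other. Dusp7, or MKPX (chr9:106368632-106375724, plus strand), had normalized counts of 4433, 4265, 4506 and 4896 in the controls, against 2362, 2261 and 2331 in the knockouts. The knockout libraries were tightly grouped at 51.2% of the control mean (4525 ± 268 against 2318 ± 51.6, SD), with a log2 fold change of -0.97 ± 0.061 (SE), just short of the limit that the study used to call a gene, a log2 fold change of 1 in either direction. Dusp6, or MKP3 (chr10:99263231-99267488, plus strand), a classical feedback target of ERK, had 1520, 1428, 2527 and 1682 in the controls, against 1432, 1117 and 1680 in the knockouts. Its groups overlapped, and control replicate 3 stood well above the other libraries. The log2 fold change was -0.34 ± 0.23 (SE) and came to -0.13 without control replicate 3.

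The nuclear, inducible phosphatases Dusp1 and Dusp4 had the lowest levels per transcript length of the MAP kinase phosphatases in the controls, and their groups overlapped. Dusp1, or MKP1 (chr17:26505590-26508519, minus strand), an immediate early gene, had normalized counts of 501, 636, 674 and 596 in the controls, against 478, 565 and 455 in the knockouts (log2 fold change -0.27 ± 0.13 SE). Dusp4, or MKP2 (chr8:34807297-34819894, plus strand), had 224, 304, 414 and 239 against 289, 278 and 254. All knockout values of Dusp4 lay within the range of the controls. Its log2 fold change of -0.11 ± 0.22 (SE) turned to 0.09 without control replicate 3.

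The remaining members are small phosphatases without the kinase-binding domain of the MAP kinase phosphatases. Dusp15 (chr2:152940997-152951698, minus strand) was the most abundant member in the controls per transcript length. Its normalized counts were 7207, 8595, 8167 and 8656 in the controls, against 3669, 4009 and 3296 in the knockouts. Every knockout library held less than the lowest control, and the mean of the knockouts was 44.8% of that of the controls (8157 ± 669 against 3658 ± 356, SD), with a log2 fold change of -1.16 ± 0.094 (SE).

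Dusp3, or VHR (chr11:101971143-101987013, minus strand), had 5894, 6136, 6178 and 5967 in the controls, against 4524, 4213 and 4725 in the knockouts. The controls differed very little among themselves, with an SD of 135 on a mean of 6044, and all knockouts lay below them at a mean of 4487 ± 258 (SD) and a log2 fold change of -0.43 ± 0.056 (SE). Dusp26 (chr8:31089471-31097047, plus strand), which is best known from neural tissue, had 259, 315, 480 and 326 against 291, 386 and 273. Its groups overlapped, with control replicate 3 the highest library, and the log2 fold change of -0.12 ± 0.23 (SE) turned to 0.08 without that library.

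**Figure D1:**
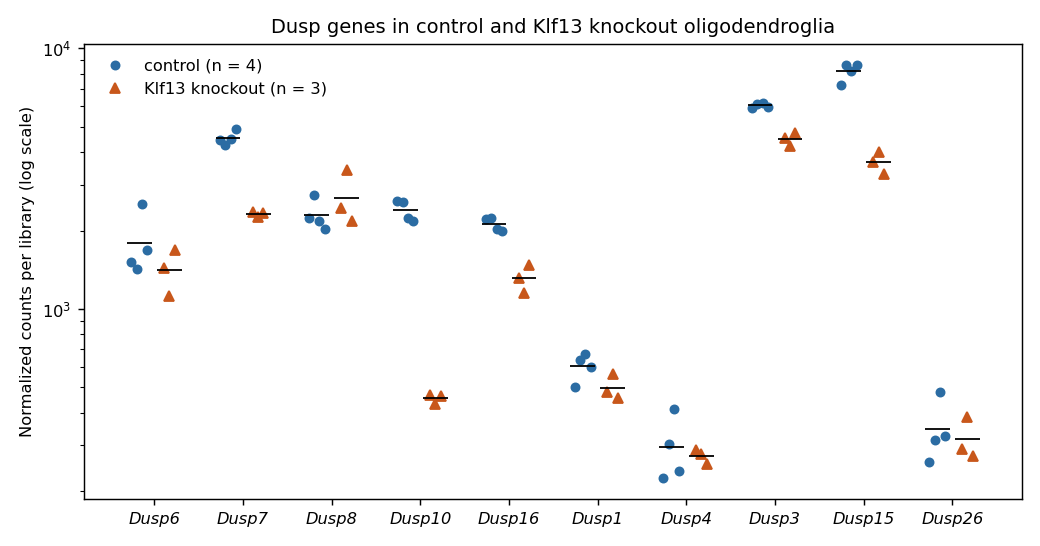
Normalized counts of the 10 Dusp genes in each of the 7 libraries (points), on a log scale, with the mean of the 4 control and the 3 knockout libraries as a bar. The knockout points of Dusp3, Dusp7, Dusp10, Dusp15 and Dusp16 all lie below the control points, and those of the other 5 genes overlap with them.

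Of the 10 members, 5 passed an adjusted p of 0.05 as lower in the knockout (Dusp3, Dusp7, Dusp10, Dusp15 and Dusp16) and 0 as higher, in edgeR and in DESeq2, and 0 were higher at an unadjusted p of 0.05 in edgeR. The fit with the ribosomal RNA covariate, in which Dusp8 passed, was the exception, with 1 higher. Of all 18352 genes tested, 12.2% passed as lower and 11.6% as higher. With the additional limit of 1 on the log2 fold change, 2 members were called lower (Dusp10 and Dusp15) and 0 higher, beside 3.08% and 3.97% of all tested genes. The groups did not overlap for 5 members, all with the knockouts below, beside 18.0% of tested genes with the knockouts below and 18.3% with the knockouts above. The median log2 fold change of the members was -0.39, and that of all tested genes was -0.0037. Since the family was chosen on this comparison, these counts describe it and are no evidence about it. At the limit of 1, Dusp15 at -1.16 was the member just inside and Dusp7 at -0.97 the one just outside. All members passed the filter on low counts.

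**Figure D2:**
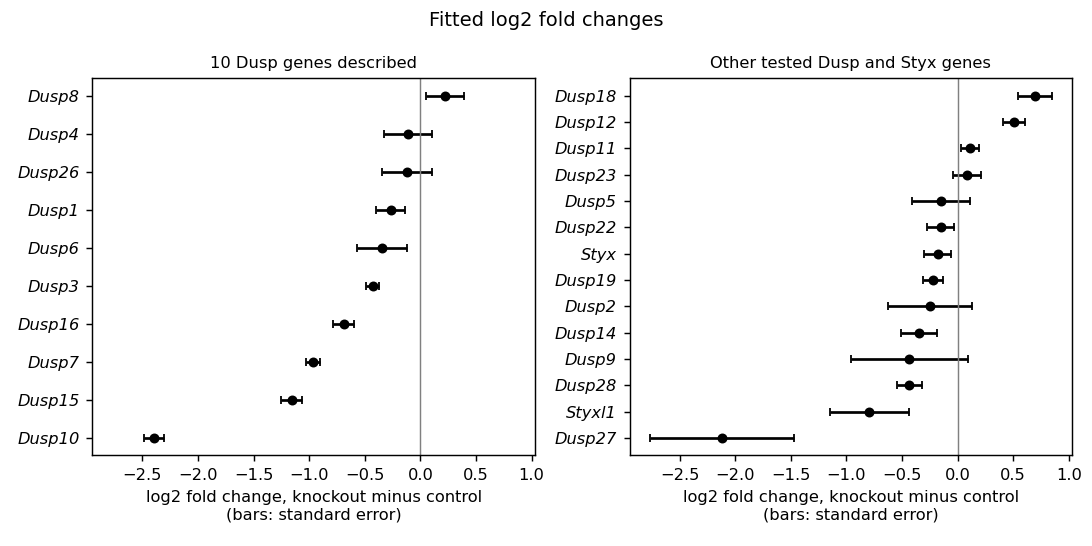
Log2 fold change, knockout minus control, with its standard error from the fit over all genes, for the 10 Dusp genes (left) and for 14 other tested genes of the family (right). On the left, Dusp10 at -2.40 stands apart from Dusp15 at -1.16 and Dusp7 at -0.97, and Dusp8 at 0.22 is the only gene to the right of 0.

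Control replicate 3 set the direction of Dusp4 and Dusp26, and knockout replicate 2 the size of the difference of Dusp8, as shown above. Given a covariate for the ribosomal RNA share, the log2 fold changes of Dusp4 and Dusp26 were also positive, 0.07 and 0.05. In 5 members, Dusp1, Dusp3, Dusp4, Dusp6 and Dusp26, the highest of the 7 libraries was control replicate 3. In that library the markers of microglia summed to 84903 normalized counts, against 17901 to 38727 in the other 6 libraries, and those of fibroblasts and mural cells to 79157, against 8937 to 63652. All 10 microglia markers overlapped between the groups, and none of the genes on the marker lists was at 0 in all libraries. Knockout replicate 2, the highest library for Dusp8, had the highest sum of 12 neuron markers, 50102 against 22002 to 35656 in the other 6 libraries, with Elavl3 as the most abundant of them at 17091. The part of these cells in the values of the Dusp genes was not tested. Dusp7, Dusp10, Dusp15 and Dusp16 had their highest value in other libraries, and without control replicate 3 the log2 fold change of Dusp10 was -2.43.

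**Figure D3:**
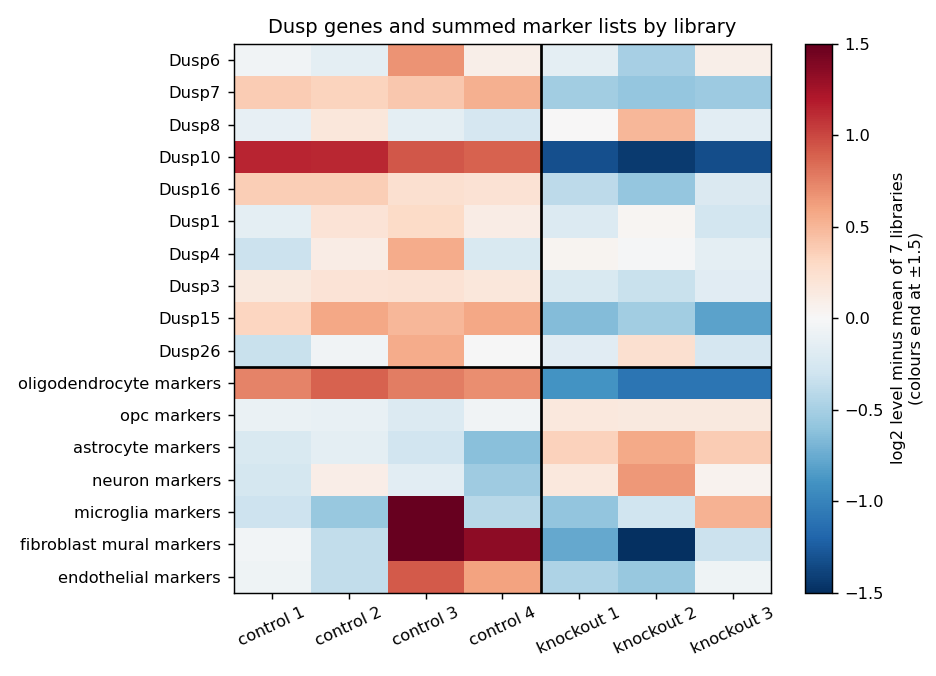
Log2 level of each Dusp gene (upper rows) and of each summed marker list (lower rows) in each library, minus the mean over the 7 libraries, with colours that end at 1.5 in either direction. Control replicate 3 is high for Dusp4, Dusp6 and Dusp26 and for the microglia markers, and the 3 knockout libraries are low for Dusp10, Dusp15, Dusp7 and Dusp16.

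To compare levels between genes, counts were divided by exon length and expressed as TPM, the share of a gene in all transcripts of its library after this division. In the controls, Dusp15 had the highest mean TPM (88.5), followed by Dusp7 (63.4), Dusp3 (61.4), Dusp10 (37.5), Dusp6 (30.8), Dusp8 (22.7), Dusp16 (12.9), Dusp1 (10.8), Dusp26 (7.27) and Dusp4 (5.31). Neighbours in this order changed places between control libraries for Dusp7 and Dusp3, for Dusp10 and Dusp6 and for Dusp6 and Dusp8, so that the levels within each of these pairs are not separated beyond their spread, whereas Dusp10 was above Dusp8 in all 4 controls. Dusp15 was first in all 4 controls and Dusp4 last in all 7 libraries. In the knockouts the mean TPM was 40.4 for Dusp3, 35.9 for Dusp15, 29.3 for Dusp7, 24.2 for Dusp8, 20.8 for Dusp6, 8.03 for Dusp1, 7.03 for Dusp16, 6.32 for Dusp10, 6.03 for Dusp26 and 4.26 for Dusp4. Dusp10 thus stood at place 4 or 5 in the controls and at place 8 or 9 in the knockouts, and Dusp3 or Dusp15 was first in each knockout. TPM values were lower where more counts fell on the ribosomal RNA genes, and therefore levels are compared as orders and shares within a library.

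The share of Dusp10 in the summed TPM of the 10 genes was 11.1% ± 1.36 (SD, n = 4) in the controls and 3.50% ± 0.21 (SD, n = 3) in the knockouts. That of Dusp8 was 6.58% ± 0.887 and 12.8% ± 2.89, although its own normalized counts overlapped between the groups. The 3 phosphatases of JNK and p38 (Dusp8, Dusp10 and Dusp16) together held 19.3% to 23.7% of the sum in the controls and 18.6% to 22.7% in the knockouts. Within that group the makeup differed. The ratio of Dusp10 to Dusp16 was 2.80 to 3.01 in the controls and 0.81 to 0.97 in the knockouts, and that of Dusp10 to Dusp8 was 1.51 to 1.87 and 0.20 to 0.34.

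The shares of the cytoplasmic ERK phosphatases and of the small phosphatases also overlapped between the groups. Dusp6 and Dusp7 held 24.7% to 30.0% in the controls and 24.7% to 30.7% in the knockouts, and the small phosphatases Dusp3, Dusp15 and Dusp26 held 44.7% to 47.4% and 44.5% to 45.5%. Within the small phosphatases, the ratio of Dusp15 to Dusp3 was 1.30 to 1.55 in the controls and 0.74 to 1.01 in the knockouts. Of the 4 role groups, the nuclear phosphatases Dusp1 and Dusp4 alone did not overlap, with 3.97% to 5.36% in the controls and 6.19% to 7.14% in the knockouts. Both genes had negative log2 fold changes, so that their higher share stands beside lower levels of other members.

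**Figure D4:**
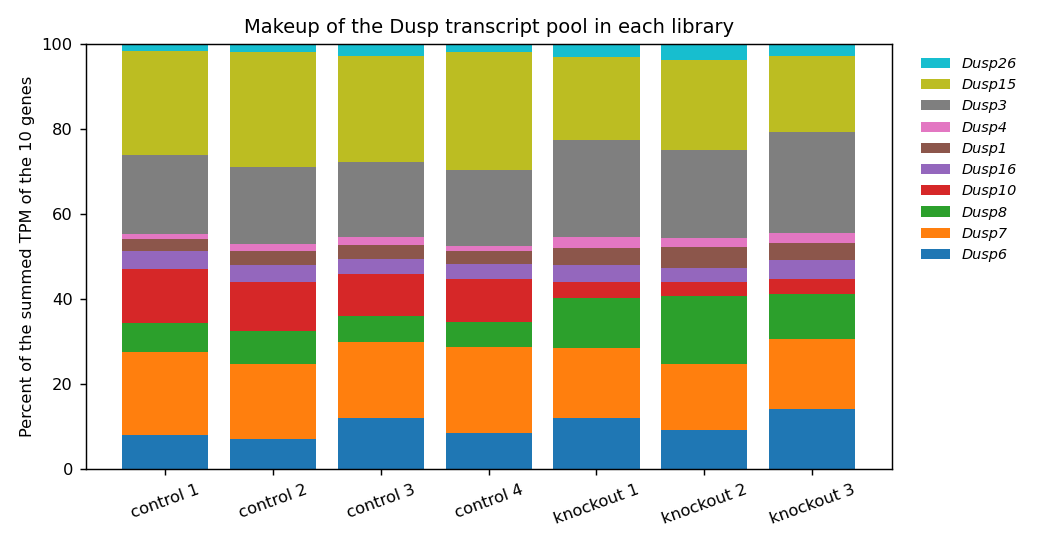
Share of each Dusp gene, in percent, in the summed TPM of the 10 genes in each library. The share of Dusp10 is 11.1% on average in the controls and 3.50% in the knockouts, and that of Dusp8 is 6.58% and 12.8%.

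The promoter sequence of 7 members was found in RefSeq (GRCm38.p6): Dusp1, Dusp3, Dusp6, Dusp7, Dusp8, Dusp10 and Dusp16. The 250 bases before the start are shown for Dusp10, the lowest member in the knockout relative to the control, and for Dusp8, the one positive member. Both are written 5′ to 3′ on the strand of the gene. Capitals mark 3 motifs, each searched on both strands. The first is the GC box (GGGCGG). Another is the short box with the letters CACCC. The last is the core of the cAMP response element, spelled TGACGT. The Dusp10 window is chr1:184034131-184034380 (plus strand) and the Dusp8 window is chr7:142095285-142095534 (minus strand). Both windows lie inside the annotated span of their gene. The sequence after the RefSeq start matched the start of a GENCODE M21 transcript for Dusp10. For Dusp8 and Dusp16 it matched no such start, so that their windows may not be the promoter in use.
Dusp10: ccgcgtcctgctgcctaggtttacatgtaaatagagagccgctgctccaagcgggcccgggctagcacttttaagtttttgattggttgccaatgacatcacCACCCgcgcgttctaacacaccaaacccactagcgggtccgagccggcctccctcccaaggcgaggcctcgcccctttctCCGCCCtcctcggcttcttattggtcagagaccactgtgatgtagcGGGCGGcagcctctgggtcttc
Dusp8: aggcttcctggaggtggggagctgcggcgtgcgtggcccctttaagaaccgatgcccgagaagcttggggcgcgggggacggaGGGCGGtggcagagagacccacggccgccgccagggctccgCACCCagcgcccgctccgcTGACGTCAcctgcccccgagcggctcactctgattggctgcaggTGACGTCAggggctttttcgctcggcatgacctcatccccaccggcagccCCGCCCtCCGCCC
The Dusp10 window held 2 GC boxes and 1 CACCC box. That of Dusp8 held 3 GC boxes, 1 CACCC box and, counted on both strands, 4 matches to the cAMP response element core, in a pair of palindromic TGACGTCA. A GC box was present in 32.7% of 32841 RefSeq promoter windows of the same length, a CACCC box in 52.0% and the cAMP response element core in 6.47%. The median share of G and C bases in those windows was 52.4%, beside 59.6% for Dusp10 and 71.6% for Dusp8. The background shares are not matched for this. Dusp1 had 3 GC boxes and 5 CACCC boxes, Dusp3 had 3 and 2, Dusp16 had 5 and 1, and Dusp6 and Dusp7 had 0 GC boxes. The cAMP response element core was also in the window of Dusp1, with 3 matches on both strands together, and in 0 of the other 5. Whether these motifs have a part in the levels of the genes was not tested. The SOX core ACAAAG, found in 16.5% of windows, was in 0 of the 7. The Klf motif used in the paper, (A/C)C(G/A/T)CCC, is wider than the GC box and was not searched. A window with 0 GC boxes may therefore still hold it. These matches describe letters and are no evidence of binding.

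The start of Dusp10 in RefSeq lies 80 bases from the start of a noncoding gene on the other strand, 1700056E22Rik (ENSMUSG00000044854, chr1:184033030-184034301). It was looked up after its values were seen. Its normalized counts were 104, 139, 114 and 82.4 in the controls, against 37.9, 22.7 and 20.6 in the knockouts. All knockout libraries lay below all controls, as for Dusp10. The means were 110 ± 23.4 and 27.1 ± 9.47 (SD), and the gene fell in the knockout (log2 fold change -2.07 ± 0.29 SE, adjusted p = 0.00377 in edgeR's quasi-likelihood test). It lies within the annotated span of Dusp10 and shares no exon with it. Whether counting used the strand is not stated, so that intron reads of Dusp10 could have been counted for it. Dusp3 shares exon sequence with Gm20659, which had no counts, and Dusp8 with Gm32786, at 4.04 normalized counts on average against 2451.

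Btbd16, Plk3, Sept4 and Plekhg3 were among the 5 tested genes with the profile closest to that of Dusp10 over the 7 libraries. Likeness was the root mean square difference of log2 values, each gene centred on its mean, and came to 0.099 for Btbd16, 0.11 for Plk3 and 0.12 for Sept4 and Plekhg3. Btbd16 had normalized counts of 517 ± 30.1 in the controls and 92.1 ± 8.38 in the knockouts (SD), which is 17.8% of the control level, beside 19.0% for Dusp10. Of the other Dusp genes, Dusp15 was closest to Dusp10 at 0.63, followed by Dusp7 at 0.72, Dusp16 at 0.84 and Dusp3 at 0.97. Dusp8 was farthest at 1.30. These values describe 7 points in 2 groups.

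The MAP kinase pathway around these phosphatases was described with lists of genes that are no members, and their counts stand beside the 12.2% lower and 11.6% higher among all tested genes. Oligodendrocyte, astrocyte and neuron markers differed between the groups as given above, and their part in the lists was not tested. Other genes of the family were taken as a list of 17 found in the count tables, of which 14 passed the filter on low counts. Of these 1 was lower and 2 were higher at an adjusted p of 0.05, and the median log2 fold change was -0.20. Dusp18 rose from 790 ± 156 to 1280 ± 52.8 normalized counts (SD, log2 fold change 0.70, adjusted p = 0.0179 in edgeR) and Dusp12 from 239 ± 14.3 to 340 ± 12.6 (0.51, adjusted p = 0.0116). Dusp28 fell from 296 ± 24.4 to 219 ± 13.4 (-0.43, adjusted p = 0.0313). With the replicate number as a block, Dusp28 had an adjusted p of 0.0794 in edgeR. Dusp11, an RNA phosphatase and the most abundant gene of this list, had 4196 ± 273 and 4528 ± 438, and Dusp19 had 1388 ± 153 and 1191 ± 29.2; neither passed. Dusp27 had a log2 fold change of -2.12 at 13.6 ± 7.23 and 3.19 ± 1.64 normalized counts and missed the threshold (adjusted p = 0.0512 in edgeR). Dusp18 did not pass without knockout replicate 1 or 2, and Dusp28 passed without control replicate 3 alone among the libraries left out one at a time.

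The kinases that Dusp enzymes act on, with those upstream of them, gave 44 tested genes, of which 7 fell, 5 rose and 32 did not pass, with a median log2 fold change of -0.07. Mapk3, which encodes ERK1, fell from 6966 ± 534 to 4710 ± 76.9 normalized counts (SD, log2 fold change -0.56, adjusted p = 0.00195 in edgeR). Map2k3, Map3k7, Map3k20, Nras and Sos2 were also among the genes that fell. Nras fell by 0.27 on the log2 scale (adjusted p = 0.0317 in edgeR), and Grb2, an adaptor, had 6044 ± 801 and 6027 ± 588. Those that rose were Mapk8 and Mapk10, which encode JNK1 and JNK3, Mapk11, a p38 kinase, its activator Map2k6, and Mapk4. None was called at a log2 fold change of 1. With the replicate number as a block, Sos2 (adjusted p = 0.0626 in edgeR), Mapk4 (0.0587) and Mapk10 (0.0790) were among those that did not pass, while Nlk, Map3k3 and Map3k11 passed as lower and Map3k1 and Map3k12 as higher. Mapk3, Mapk8 and Map2k6 passed whichever of the 7 libraries was left out, Nras passed without control replicate 2 alone, and each of the other genes named as past the test did not pass in 3 to 5 of these 7 fits. Leaving out single libraries gave 1 to 6 genes that fell and 2 to 6 that rose, with 1 and 3 without knockout replicate 1, 1 and 2 without knockout replicate 2, 2 and 4 without control replicate 4, 3 and 5 without control replicate 1, and 4 and 2 without knockout replicate 3.

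Of 19 scaffolds and effector kinases of these cascades, 3 fell and 4 rose, with a median log2 fold change of -0.09. Mapk8ip1, the JNK scaffold JIP1, fell from 10563 ± 1885 to 5988 ± 1272 normalized counts (SD, log2 fold change -0.82, adjusted p = 0.0181 in edgeR), and it did not pass without knockout replicate 1. The genes that rose were Mapk8ip2, Ksr1, Ksr2 and Rps6ka6, a kinase of the RSK family. Rps6ka6 rose from 401 to 703 normalized counts on average (log2 fold change 0.81, adjusted p = 0.0144 in edgeR) and passed whichever library was left out, whereas Mapk8ip2, Ksr1 and Ksr2 each did not pass in 5 or 6 of these 7 fits. Spag9 (22749 ± 1924 and 22596 ± 827) did not pass, and Mapk8ip3 (10302 ± 948 and 8870 ± 874) passed only with the replicate block (adjusted p = 0.0285 in edgeR). Without single libraries the counts were 0 to 2 lower and 1 to 4 higher, with 0 and 1 without knockout replicate 1, 1 and 1 without control replicate 4 or knockout replicate 2, 1 and 2 without control replicate 1 or knockout replicate 3, and 2 and 1 without control replicate 3.

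Feedback regulators and targets of ERK gave 19 tested genes, with 7 that fell, 2 that rose and a median log2 fold change of -0.25. Phlda1 fell from 2926 ± 249 to 959 ± 69.5 normalized counts (SD, log2 fold change -1.61, adjusted p = 6.41e-05 in edgeR) and Ccnd1, which encodes cyclin D1, from 11582 ± 2392 to 5460 ± 1072 (-1.09, adjusted p = 0.00850). The other 5 were the ERK inhibitors Spry1, Spry2, Spry4 and Spred3 and the receptor gene Epha4, and Il17rd and Elk1 rose. With the replicate number as a block, Spry1 (adjusted p = 0.0926 in edgeR) and Spry4 (0.0537) did not pass, and each of them passed without knockout replicate 1 alone among the libraries left out one at a time. Phlda1, Ccnd1 and Spred3 passed whichever library was left out. Spry2 did not pass without knockout replicate 1 or 3, Epha4 without control replicate 4, knockout replicate 1 or knockout replicate 2, Elk1 without knockout replicate 1 or 2, and Il17rd without knockout replicate 2. Spred1 (8749 ± 319 and 7981 ± 530) and Etv1 (3604 ± 247 and 4155 ± 80.4) did not pass. Without single libraries 4 or 5 genes fell and 0 to 3 rose, with 4 lower without control replicate 4, knockout replicate 2 or knockout replicate 3, and 1 and 0 higher without knockout replicates 1 and 2.

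Among 19 AP-1 and immediate early genes, 4 fell and 1 rose, with a median log2 fold change of -0.24. Arc, an immediate early gene known from neurons, fell from control values of 1507, 1815, 1468 and 1157 normalized counts to knockout values of 162, 162 and 151 (log2 fold change -3.23, adjusted p = 4.27e-05 in edgeR), a clear separation like that of Dusp10. Egr2 fell from 95.9 ± 29.2 to 33.5 ± 10.6 (-1.54, adjusted p = 0.0176), Fos from 1939 ± 513 to 953 ± 196 (-1.03, adjusted p = 0.0200) and Egr1 from 730 ± 70.2 to 535 ± 63.4 (-0.45, adjusted p = 0.0289). Egr2 did not pass without knockout replicate 1 or 2, and Fos without control replicate 4, knockout replicate 2 or knockout replicate 3. Egr1 passed without control replicate 2 or knockout replicate 3 alone. Atf2 rose by 0.19 (log2, adjusted p = 0.0334) but not with the replicate block (adjusted p = 0.0952 in edgeR), and it passed without knockout replicate 1 alone among the libraries left out one at a time. Jun (4447 ± 890 and 3537 ± 627) and Jund (2835 ± 700 and 2580 ± 1084) did not pass. Without single libraries 1 to 4 genes were lower, with 1 without knockout replicate 2 and 2 without control replicate 4 or knockout replicate 1.

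Of 9 phosphatases outside the Dusp family that act on MAP kinases, 0 fell in edgeR (0 also at an unadjusted p of 0.05, and 0 in DESeq2) and 1 rose, with a median log2 fold change of -0.08. Ptpn5, which encodes the phosphatase STEP of neurons, rose from 113 ± 47.1 to 278 ± 81.3 normalized counts (SD, log2 fold change 1.30, adjusted p = 0.0374 in edgeR). It was highest in knockout replicate 2, which also had the highest neuron markers, and it did not pass without control replicate 3 or without any of the 3 knockouts. The part of these cells in the value was not tested. Ppp2ca (24045 ± 2047 and 21958 ± 3408), Ppm1l (14380 ± 1610 and 12766 ± 249) and Ppm1a (4076 ± 272 and 3794 ± 198) did not pass.

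**Figure D5:**
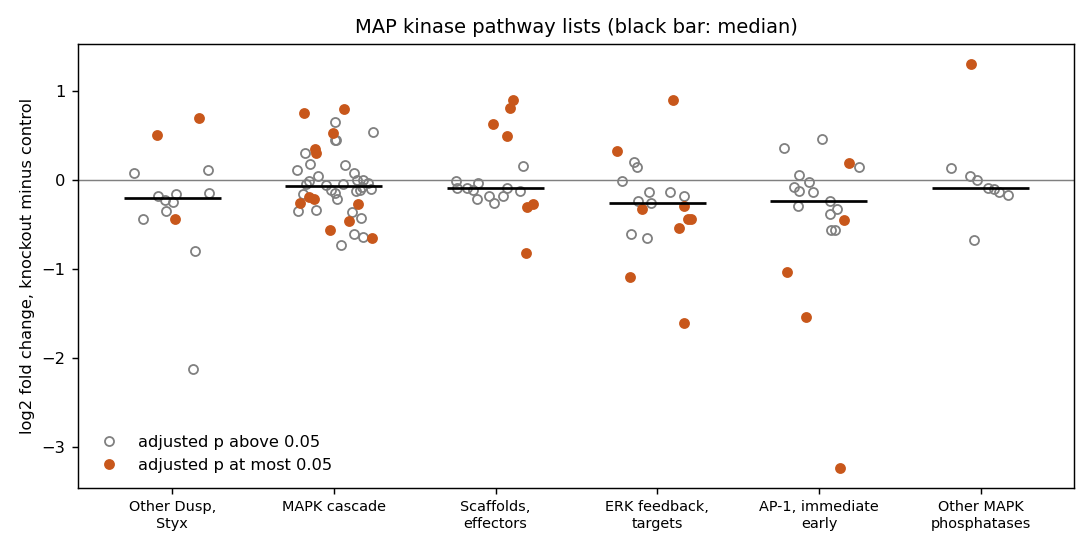
Log2 fold change of each tested gene in the lists of other Dusp genes, the MAP kinase cascade, scaffolds and effectors, ERK feedback and targets, AP-1 and immediate early genes, and other phosphatases. Filled points passed an adjusted p of 0.05 and black bars are medians, and Arc at -3.23 and Ptpn5 at 1.30 lie at the ends.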

How the data were processed

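RNA from 7 cultures was sequenced as paired-end libraries on NovaSeq. Trimming was done by the authors with Trimmomatic 0.36, mapping to GRCm38 with STAR 2.5.2b and counting of unique exon hits with Subread 1.5.2. The values they deposited are raw counts per gene without normalization. The annotation release and strand setting are not given in the sources used here. Symbols were found for 48970 of 49315 identifiers.

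In R 4.3.3, counts were analysed with edgeR 4.0.16 (filterByExpr by group, TMM scaling, robust quasi-likelihood fit, group as the only term). Tests were two-sided and adjusted by the Benjamini-Hochberg method over 18352 genes. A call needed an adjusted p not above 0.05 together with a log2 fold change of 1 or more in either direction. Profiles were compared on log2 CPM with a prior count of 2. DESeq2 1.42.0 and other settings served as alternatives. The members and lists were chosen with earlier results of these data known. The rule for naming allowed all members and the 3 most abundant and up to 4 called genes of each list. It also allowed every detected gene of the list of other Dusp genes and the 5 genes closest to Dusp10. The values of some genes under this rule are not reported here. Further list genes past the test were named after their values were seen. P-values set the difference between the groups against the variation between these libraries.

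Deviations from the group means of libraries with the same replicate number correlated at 0.11, 0.46 and 0.17 across genes in the 3 pairs. Libraries with unlike numbers gave -0.53 to 0.20, and genes are no independent replicates. A block for the number was added in an alternative fit.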

Additional observations from a re-analysis of the deposited data

How the results depend on the processing

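Across 14 alternatives the log2 fold change of Dusp10 stayed between -2.44 and -2.34 and that of Klf13 between -3.75 and -3.61. Upper quartile normalization left 0 other Dusp genes lower, 4 cascade genes lower and 8 higher, and 1 scaffold or effector lower. Without a filter on low counts, 0 other Dusp genes were lower, 1 scaffold or effector was lower and 1 higher, and 0 AP-1 and immediate early genes and 0 other phosphatases were higher. With the replicate number as a block, 0 other Dusp genes were lower and 0 AP-1 and immediate early genes higher. In that fit 553 genes were called lower and 563 higher, and the log2 fold change of Dusp10 was -2.44. Dusp28, Mapk4, Mapk10, Sos2, Spry1, Spry4 and Atf2 did not pass, and Mapk8ip3 did. The block left 5 ERK feedback genes and targets lower and 8 cascade genes lower. With the ribosomal RNA share as covariate, 1 member (Dusp8) was higher, 2 other Dusp genes were lower and 9 cascade genes were higher, and DESeq2 had 2 other Dusp genes lower. The cause of these differences was not tested.

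Leaving out 1 library at a time gave 388 to 577 genes called lower and 335 to 810 called higher, with both lowest values without knockout replicate 2. Such fits gave 0 to 2 other Dusp genes lower and 1 to 2 higher, 1 to 6 cascade genes lower and 2 to 6 higher, 0 to 2 scaffolds and effectors lower and 1 to 4 higher, 4 to 5 ERK feedback genes and targets lower and 0 to 3 higher, 1 to 4 AP-1 and immediate early genes lower and 0 to 1 higher, and 0 to 1 other phosphatases higher.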
